A study of Saccharomyces cerevisiae with 18 samples.

Results

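The 10 genes described here encode enzymes of fatty acid oxidation in the peroxisome, a protein that controls the number of peroxisomes, and the proteins that carry the product to the mitochondrion in the budding yeast Saccharomyces cerevisiae. They are FAA2, POX1, FOX2, POT1, CTA1, PEX11, CAT2, YAT1, YAT2 and CRC1, and each was read from array probe sets annotated to that gene alone. They were chosen by name from the pathway, with earlier results of these data known. Shares of the 10 genes set beside those of all probe sets are therefore a description. They are 10 of the 5656 genes with such a probe set. Total RNA of 8 genotype groups had been hybridised to 18 one-colour Affymetrix YG_S98 arrays, which give 1 signal per probe set in arbitrary units. The groups were wild type (n = 3), a deletion of RPD3 (rpd3 delete, n = 2), a histone H3 without its amino-terminal tail, H3delta(1-28) (n = 2), an H3 whose tail lysines were changed to glutamine, H3(K4,9,14,18,23,27Q) (n = 3), a histone H4 without its tail, H4delta(2-26) (n = 2), an H4 with lysines changed to glutamine, H4(K5,8,12,16Q) (n = 2), and the deletion of RPD3 joined to H3delta(1-28) (n = 2) or to H4(K5,8,12,16Q) (n = 2). The last pair are called the H3 double mutant and the H4 double mutant. Each genotype was 1 strain. The labels name no medium or carbon source and do not say if replicate arrays stem from different cultures. The p-values therefore reflect only how much these arrays vary, part of which may be technical.

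Budding yeast oxidises fatty acids only in peroxisomes. An acyl-CoA synthetase activates the fatty acid, and an oxidase, a bifunctional hydratase and dehydrogenase, and a thiolase then shorten it by acetyl units, with hydrogen peroxide as a by-product that catalase removes. The acetyl units reach the mitochondrion as acetylcarnitine, made by carnitine acetyltransferases and taken in by a carnitine carrier, or enter the glyoxylate cycle. Genes of this pathway are known to be repressed on glucose and induced by fatty acids such as oleate. RPD3 encodes a histone deacetylase, which removes acetyl groups from the tail lysines of the histones. A change of lysine to glutamine removes the positive charge and is often used to mimic acetylation.

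Signal of RPD3 itself was 689.7 to 1001 in wild type, 493.6 to 974.6 in the histone mutants and 9.40 to 80.7 in the 3 groups that carried the deletion. Signals under the pooled 25th percentile of all arrays, 140.2, were set to that value, called the floor, before log2 was taken. Within a group, correlations between arrays were 0.949 to 0.988. The file headers of 3 arrays, the second of H3delta(1-28), of H4delta(2-26) and of the H3 double mutant, name another strain than their labels. Of the wild-type arrays, the third has an RNA amplification kit named in its header, and without it the 10 genes had 5 called in the deletion of RPD3, 6 in H3delta(1-28), 7 in the H3 double mutant and 6 in the H4 double mutant. Wild-type arrays came from 3 sampling days, of which 1 was shared with the deletion of RPD3, H3delta(1-28) and the H3 double mutant (1 array of each). No array of the other 4 mutant groups shared a day with wild type, so in those comparisons day and genotype cannot be told apart within a day. The ratio of 3′ to 5′ actin signal, a measure of RNA integrity, was 1.37 to 1.41 in wild type, 1.66 to 1.68 in the deletion of RPD3, 1.44 to 1.85 in H3delta(1-28), 1.5 in H4delta(2-26) and 1.53 to 1.76 in the H3 double mutant, all above wild type. It was 1.38 to 1.40 in H4(K5,8,12,16Q), 1.20 to 1.49 in the H4 double mutant and 1.19 to 1.54 in H3(K4,9,14,18,23,27Q).

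All 10 genes had a tested probe set, but not all by the same margin. FOX2, POT1, CRC1, YAT2 and PEX11 were above the floor on all 18 arrays, CAT2 and YAT1 on 17, FAA2 on 15, CTA1 on 14 and POX1 on 4. FAA2, CTA1 and POX1 were under the floor on all 3 wild-type arrays. They entered the test only through the mutant groups in which they were higher. Their folds over wild type are lower bounds where the mean log2 signal of the mutant group lay above the floor. Set to the floor, their wild-type arrays had no spread in the fit. The counts below of genes called, and of genes whose arrays did not overlap, include these genes, but nothing is read from their part.

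**Figure D1:**
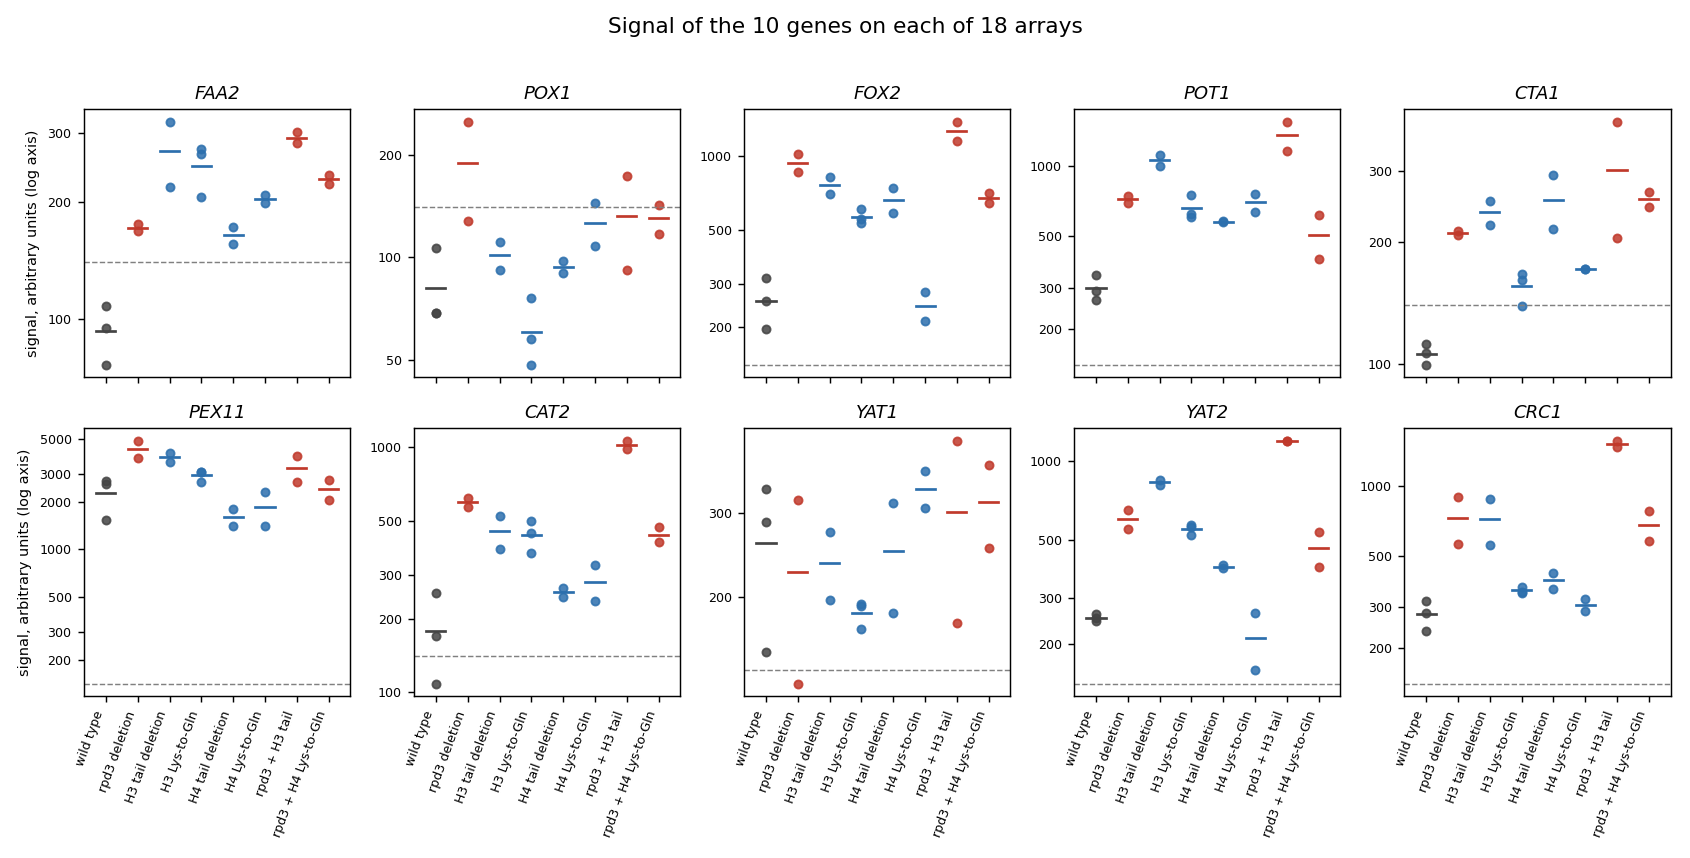
Signal of each gene on every array, in arbitrary units on a log axis, by genotype group. Points are arrays, bars are group means and the dashed line is the floor of 140.2. Black is wild type, red marks groups with the deletion of RPD3 and blue the histone mutants with RPD3 intact. The H3 double mutant had the highest mean for 7 of the 10 genes.

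FAA2 encodes the acyl-CoA synthetase that activates medium-chain fatty acids at the peroxisome. Its signal was 108.1, 76.0 and 94.9 in wild type, under the floor on each array. On every array of every mutant it was above the floor, from 155.8 to 321.1. The 2 arrays of the H3 double mutant read 301.7 and 282.6, those of H3delta(1-28) 218.5 and 321.1, and those of H3(K4,9,14,18,23,27Q) 272.5, 264.7 and 205.4. H3delta(1-28) overlapped both of the others, and the deletion of RPD3 alone (167.8 and 174.7) and H4delta(2-26) (171.8 and 155.8) lay lowest among the mutants.

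POX1 encodes acyl-CoA oxidase, the first enzyme of the oxidation cycle. The probe set that stands for it read 106.5, 68.5 and 68.6 in wild type. The signal passed the floor on 1 array each of the deletion of RPD3 (250.3, with 127.6 on the other), the H3 double mutant (172.9, with 91.7), the H4 double mutant (142.9, with 117.3) and H4(K5,8,12,16Q) (143.9, with 108.0). The 3 other POX1 probe sets were not tested, and only 1 of them passed the floor on any array (146.1, on 1 array). POX1 thus stayed near the background of the arrays in all 8 groups, and no level can be set for it.

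FOX2 encodes the bifunctional enzyme of the hydratase and dehydrogenase steps. Its signal was 318.1, 196.9 and 255.7 in wild type, a mean of 256.9 ± 60.6 (SD, n = 3). It read 1022.5 and 860.8 in the deletion of RPD3, 702.3 and 818.8 in H3delta(1-28), 607.1, 553.2 and 535.8 in H3(K4,9,14,18,23,27Q), and 738.8 and 588.8 in H4delta(2-26). All 9 of these arrays lay above all 3 wild-type arrays. The H3 double mutant was the highest group at 1385.1 and 1155.4, and the H4 double mutant read 705.8 and 643.3. H4(K5,8,12,16Q), at 211.8 and 279.6, lay within the wild-type range. In the order of means, the H3 double mutant stood apart from the deletion of RPD3 and that from H3delta(1-28), while H3delta(1-28), the H4 double mutant, H4delta(2-26) and H3(K4,9,14,18,23,27Q) each overlapped the next.

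POT1 encodes the thiolase that releases the acetyl unit. Wild type read 342.3, 291.9 and 266.5, a mean of 300.3 ± 38.6 (SD, n = 3). The signal was 696.8 and 742.1 in the deletion of RPD3, 995.2 and 1119.3 in H3delta(1-28), and 747.4, 606.7 and 621.4 in H3(K4,9,14,18,23,27Q). It was 580.4 and 574.0 in H4delta(2-26), 636.5 and 760.7 in H4(K5,8,12,16Q), and 1549.1 and 1162.3 in the H3 double mutant. Unlike FOX2, POT1 was clear of the wild-type range in H4(K5,8,12,16Q). The H4 double mutant had the lowest mean of the mutants, at 616.7 and 399.0.

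CTA1 encodes catalase A, the peroxisomal catalase. Wild type read 106.9, 112.1 and 99.6, all under the floor. The 2 arrays read 208.1 and 212.8 in the deletion of RPD3, 253.0 and 221.0 in H3delta(1-28), 293.9 and 216.3 in H4delta(2-26), 397.1 and 204.7 in the H3 double mutant and 266.6 and 245.1 in the H4 double mutant. The lysine substitutions were lower, with 166.7, 139.5 and 161.8 for H3 and 171.7 and 171.6 for H4, close to the floor. The arrays of the H3 double mutant lay so far apart that they spanned those of the deletion of RPD3, H3delta(1-28), H4delta(2-26) and the H4 double mutant in part or whole.

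PEX11 encodes a peroxisomal membrane protein that promotes division of the organelle. It read 2586.9, 2699.8 and 1538.2 in wild type, far above the floor, with the third array apart from the other two. The deletion of RPD3 read 3785.7 and 4875.8, and H3delta(1-28) 4066.5 and 3571.4, both clear of wild type. H4delta(2-26), at 1399.9 and 1786.0, overlapped the low wild-type array, and H4(K5,8,12,16Q) read 1395.9 and 2309.7. The double mutants read 3870.7 and 2678.3 with H3delta(1-28) and 2762.2 and 2064.3 with H4(K5,8,12,16Q), and both overlapped wild type.

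CAT2 encodes the carnitine acetyltransferase shared by peroxisomes and mitochondria. Wild type read 252.9, 108.0 and 170.3, a mean of 177.1 ± 72.7 (SD, n = 3), with the second array under the floor. The signal was 619.9 and 570.1 in the deletion of RPD3, 385.6 and 524.0 in H3delta(1-28) and 497.8, 446.1 and 369.6 in H3(K4,9,14,18,23,27Q). The H3 double mutant stood clear of all other groups at 980.5 and 1062.8. The H4 mutants with intact RPD3 were near the highest wild-type array, at 243.7 and 267.1 for the tail deletion and 235.4 and 329.2 for the lysine substitution. The H4 double mutant read 471.2 and 408.6, above both.

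YAT2 encodes a second carnitine acetyltransferase, found outside the peroxisome. Its wild-type arrays were close together at 251.5, 259.6 and 244.7. The 2 arrays of the H3 double mutant read 1196.0 and 1199.1, those of H3delta(1-28) 848.3 and 811.3, and those of the deletion of RPD3 647.7 and 550.7. H3(K4,9,14,18,23,27Q) read 569.6, 519.8 and 561.3, overlapping the deletion of RPD3. H4delta(2-26) was lower at 388.4 and 400.6, and H4(K5,8,12,16Q) read 159.0 and 261.3, reaching below the wild-type range. The H4 double mutant read 536.9 and 392.9.

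CRC1 encodes the carrier that brings acetylcarnitine across the inner mitochondrial membrane. It read 283.6, 238.1 and 318.8 in wild type, 898.7 and 559.9 in the deletion of RPD3, and 877.4 and 559.3 in H3delta(1-28). The H3 double mutant was the highest group, at 1467.0 and 1566.7. In H3(K4,9,14,18,23,27Q), at 350.6, 367.5 and 347.5, and in H4delta(2-26), at 361.4 and 423.8, CRC1 lay just above the wild-type range, and in H4(K5,8,12,16Q) it read 326.6 and 290.5. The H4 double mutant, at 777.0 and 578.9, overlapped the deletion of RPD3 alone.

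YAT1 encodes the carnitine acetyltransferase of the outer mitochondrial membrane. Its arrays ran from 131.1 to 424.6 over all groups, and wild type alone spanned 153.4 to 336.5. The 2 arrays of the H3 double mutant read 175.8 and 424.6, and those of the deletion of RPD3 131.1 and 318.8. The highest mean was that of H4(K5,8,12,16Q), at 366.3 and 306.2. No mutant group was clear of the wild-type range.

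The first comparison asks which of these genes depend on Rpd3. In the deletion of RPD3, 6 of the 10 genes rose against wild type, none fell and 4 were not called, from limma on all 7851 tested probe sets with Benjamini-Hochberg adjustment at 0.05. Over all probe sets 11.2% were called higher and 4.13% lower. FOX2 rose 3.72-fold (log2 change 1.90 ± 0.23 SE, adjusted p = 0.00015) and CAT2 3.26-fold (1.71 ± 0.26, adjusted p = 0.000623). CRC1 rose 2.55-fold, POT1 2.41-fold, YAT2 2.37-fold and PEX11 1.95-fold (adjusted p = 0.00283, 0.00184, 0.00181 and 0.0314). For 9 of the 10 genes, POX1 near background among them, the arrays of the groups did not overlap, against 38% of all probe sets. The 4 genes not called were CTA1 (at least 1.5-fold, adjusted p = 0.0875), FAA2 (at least 1.22-fold, adjusted p = 0.278), POX1 (with 1 array above the floor, adjusted p = 0.123) and YAT1 (-0.22 ± 0.43, adjusted p = 0.821). The median log2 change of the 10 genes was 1.10, and of all probe sets 0.01.

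On the 1 day with an array of each group, FOX2 differed by 1.44, CAT2 by 1.17, YAT2 by 1.13, POT1 by 1.12, CRC1 by 0.98 and PEX11 by 0.91 on the log2 scale, with no replicate. With day as a block, FOX2 (1.51, adjusted p = 0.0246) and CAT2 (1.31, adjusted p = 0.0460) were the 2 genes of the 10 still called. PEX11 was not called without the third wild-type array (0.70, adjusted p = 0.0945) or without either array of the deletion. The call of PEX11 was lost in 11 of 17 alternatives. CTA1 and FAA2 were called when no floor was set (0.89 and 0.79). With a lower floor 9 genes were called, POX1 among them (1.17, adjusted p = 0.0386), and POX1 was also called without the second array of the deletion (0.84, adjusted p = 0.00131). With the actin ratio as a covariate 5 genes were called, and PEX11 was not (0.94, adjusted p = 0.114).

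The next comparisons concern the histone tails. In H3delta(1-28), 7 of the 10 genes rose and 3 were not called, against 10.7% of all probe sets called higher and 2.98% lower. FAA2 and CTA1, counted among the 7, entered the test only through mutant groups. POT1 rose 3.53-fold (1.82 ± 0.22, adjusted p = 0.000312), YAT2 3.29-fold (1.72 ± 0.22, adjusted p = 0.000402) and FOX2 3.01-fold (1.59 ± 0.23, adjusted p = 0.000799). CRC1 rose 2.52-fold and CAT2 2.47-fold, while FAA2 rose at least 1.89-fold and CTA1 at least 1.69-fold (adjusted p = 0.00372, 0.00449, 0.00248 and 0.0324). PEX11 (0.79, adjusted p = 0.0788), YAT1 (-0.08, adjusted p = 0.952) and POX1, under the floor on every array of both groups, were not called. The arrays of 8 genes did not overlap, against 36.2% of all probe sets, and the median log2 change was 1.11 against 0.00 over all probe sets.

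With day as a block, 2 of the 10 genes stayed called in H3delta(1-28), YAT2 (1.67, adjusted p = 0.0468) and FAA2 (1.00, adjusted p = 0.0441). The wild-type arrays of FAA2 all lay under the floor, and nothing is read from its call. On the shared day POT1 differed by 1.71, YAT2 by 1.69, FOX2 by 1.36, FAA2 by 1.20, CAT2 by 1.05, CRC1 by 0.98 and CTA1 by 0.66 on the log2 scale. The header of the H3delta(1-28) array of that day names another strain. With the actin ratio as a covariate 6 genes were called, and CTA1 was not (0.63, adjusted p = 0.129). CTA1 lost its call when any 1 array of the 2 groups was left out (adjusted p = 0.0551 to 0.173), CRC1 without the first array of H3delta(1-28), and CAT2 without the second, whose header names another strain.

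With the H3 lysines changed to glutamine, 5 of the 10 genes rose and 5 were not called, against 11.8% of all probe sets called higher and 13.7% lower. FAA2, counted among the 5 that rose, entered the test only through mutant groups. CAT2 rose 2.39-fold (1.25 ± 0.23, adjusted p = 0.00178), FOX2 2.24-fold, POT1 2.20-fold, YAT2 2.18-fold and FAA2 at least 1.75-fold (adjusted p = 0.00143, 0.0014, 0.0013 and 0.0016). CRC1 (0.35, adjusted p = 0.282), CTA1 (at least 1.11-fold, adjusted p = 0.621), PEX11 (0.41, adjusted p = 0.25), YAT1 (-0.41, adjusted p = 0.48) and POX1, under the floor on every array, were not called. The arrays of 7 genes did not overlap those of wild type, against 40.2% of all probe sets. These arrays are of later days than most wild-type arrays, and with the chip lot of the file headers as a block none of the 5 passed, with log2 changes of 1.25 for CAT2 (adjusted p = 0.0920) and 0.73 for FAA2 (adjusted p = 0.0964).

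The 2 forms of H3 were set against each other to ask whether loss of the tail and loss of its lysine charge differ. No gene of the 10 was called, with 4 at an unadjusted p under 0.05, against 0.395% of all probe sets called in either direction. The widest gap was that of CRC1, 0.98 ± 0.25 higher in H3delta(1-28) on the log2 scale (95% interval 0.44 to 1.53, adjusted p = 0.0972). POT1 followed at 0.69 (adjusted p = 0.137), and for CAT2 the difference was 0.05 (interval -0.50 to 0.60). The others were 0.60 for CTA1, 0.59 for YAT2, 0.43 for FOX2, 0.38 for PEX11, 0.33 for YAT1 and 0.11 for FAA2, with POX1 under the floor throughout. The arrays of 8 genes did not overlap between the 2 forms, against 43.4% of all probe sets, but for POX1, counted among the 8, both groups lay in the background. The 2 groups lie in different sampling periods, so between them form and period cannot be told apart. Only wild type had arrays of both periods. With period as a block none was called, and CRC1 differed by 1.28 and POT1 by 0.44. In that fit CAT2 (-0.10), YAT1 (-0.69) and PEX11 (-0.40) changed sign.

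In H4delta(2-26), 4 of the 10 genes rose and 6 were not called, against 12.3% of all probe sets called higher and 15.1% lower. CTA1, counted among the 4, entered the test only through mutant groups. FOX2 rose 2.62-fold (1.39 ± 0.23, adjusted p = 0.000755), POT1 1.93-fold (0.95 ± 0.22, adjusted p = 0.0066), CTA1 at least 1.80-fold (adjusted p = 0.0106) and YAT2 1.57-fold (adjusted p = 0.0423). CAT2 (0.49, adjusted p = 0.183), CRC1 (0.49, adjusted p = 0.17), FAA2 (at least 1.17-fold, adjusted p = 0.344), PEX11 (-0.48, adjusted p = 0.223), YAT1 (-0.03, adjusted p = 0.999) and POX1, under the floor on every array, were not called. The arrays of 6 genes did not overlap, against 50.2% of all probe sets. Without the 3 arrays whose header names another strain FOX2 and CTA1 stayed called, and without the first array of H4delta(2-26) 2 genes were called. With day or chip lot as a block none was. The file header of the first H4delta(2-26) array names no chip lot. Without the third wild-type array PEX11 was called lower (-0.74, adjusted p = 0.0432) and YAT2 lost its call (0.63, adjusted p = 0.0656). The call of YAT2 was lost in 10 of 17 alternatives.

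With the H4 lysines changed to glutamine, 2 of the 10 genes rose and 8 were not called, against 8.69% of all probe sets called higher and 16.5% lower. FAA2, counted among the 2, entered the test only through mutant groups. Without it POT1 alone remains, near the share of all probe sets, and nothing is read from the count. In H4(K5,8,12,16Q), POT1 rose 2.33-fold (1.22 ± 0.22, adjusted p = 0.0018) and FAA2 at least 1.45-fold (0.53 ± 0.16, adjusted p = 0.0281). FOX2, which rose in all 4 single mutants described before it, had a log2 change of -0.05 here, with a 95% interval of -0.54 to 0.44 (adjusted p = 0.926). CAT2 (0.61, adjusted p = 0.0972), YAT1 (0.45, adjusted p = 0.486), CTA1 (at least 1.22-fold, adjusted p = 0.349), CRC1 (0.15, adjusted p = 0.727), PEX11 (-0.30, adjusted p = 0.47), YAT2 (-0.31, adjusted p = 0.332) and POX1, with 1 array above the floor, were not called either. CAT2 was called under median centring (0.78, adjusted p = 0.0193), under quantile normalization (0.71, adjusted p = 0.0243) and without the first wild-type array (0.85, adjusted p = 0.0222). The arrays of 4 genes did not overlap, a lower share than the 50% of all probe sets. They were POT1, POX1 near background, and CTA1 and FAA2, under the floor on all wild-type arrays. With chip lot as a block neither POT1 (1.10, adjusted p = 0.268) nor FAA2 passed, and FAA2 also lost its call without the first or second wild-type array or either array of the mutant.

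Between the 2 forms of H4, FOX2 and YAT2 differed and 8 of the 10 genes did not pass, against 3.63% of all probe sets called higher. The arrays of 7 genes, POX1 near background among them, did not overlap, against 56.2% of all probe sets. FOX2 was 2.71-fold (1.44 ± 0.25, adjusted p = 0.00666) and YAT2 1.94-fold (0.95 ± 0.24, adjusted p = 0.0348) higher in H4delta(2-26) than in H4(K5,8,12,16Q). POT1 was 0.27 lower by log2 without passing the test (-0.27, adjusted p = 0.628). The others were 0.55 for CTA1, 0.35 for CRC1, -0.13 for CAT2, -0.18 for PEX11, -0.31 for FAA2, -0.48 for YAT1 and -0.02 for POX1. The 2 groups lie in different sampling periods, and with period as a block FOX2 differed by 1.47 (adjusted p = 0.101) and none was called. That block rests on the third wild-type array, the only one of wild type from the later period. Leaving out the first array of either group also left none called.

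**Figure D2:**
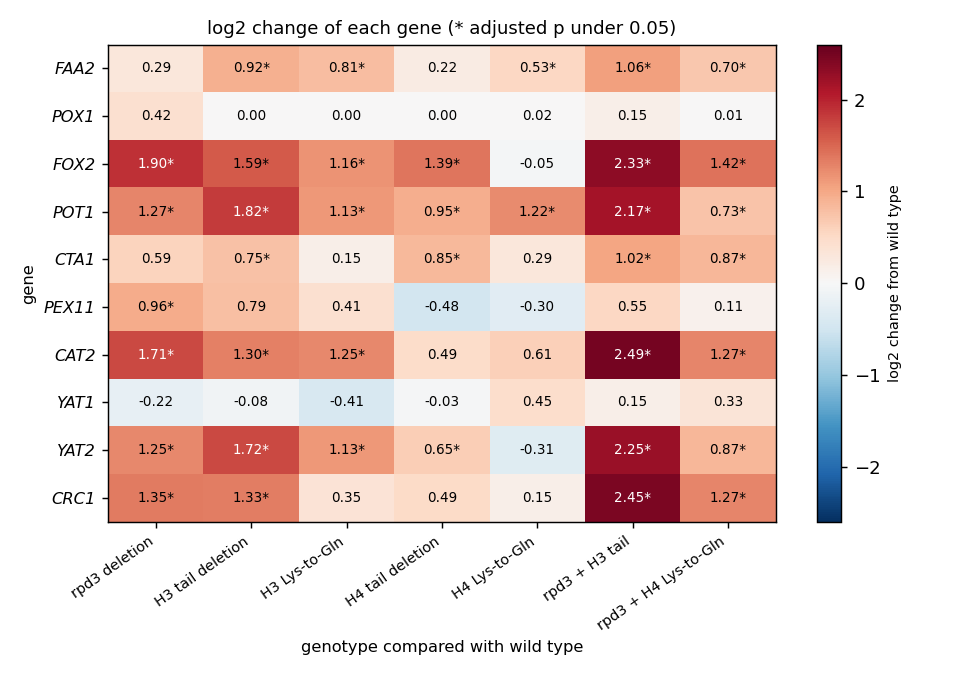
log2 change of each gene (rows) against wild type in each of 7 mutants (columns), from the limma fit of floored log2 signals. A star marks an adjusted p under 0.05, and the colour runs from blue (lower) to red (higher). FOX2 is starred in every column but H4(K5,8,12,16Q), POT1 in all 7, and POX1 and YAT1 in none.

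The H3 double mutant held the largest rises for 7 of the 10 genes. Against wild type 7 genes rose and 3 were not called, against 15.4% of all probe sets called higher and 8.13% lower. FAA2 and CTA1, counted among the 7 that rose, entered the test only through mutant groups. The arrays of 7 genes did not overlap, against 42.6% of all probe sets. CAT2 rose 5.61-fold (2.49 ± 0.26, adjusted p = 2.83e-05), CRC1 5.45-fold (2.45 ± 0.25, adjusted p = 2.83e-05), FOX2 5.02-fold (adjusted p = 2.32e-05), YAT2 4.75-fold (adjusted p = 2.12e-05) and POT1 4.49-fold (adjusted p = 2.73e-05). FAA2 rose at least 2.08-fold (adjusted p = 0.000451) and CTA1 at least 2.03-fold (adjusted p = 0.00391). PEX11 (0.55, adjusted p = 0.179), YAT1 (0.15, adjusted p = 0.846) and POX1, with 1 array above the floor, were not called. On the shared day the differences were 2.47 for CRC1, 2.25 for YAT2, 2.07 for CAT2, 1.86 for FOX2 and 1.76 for POT1, and with day as a block 6 genes were called. The header of the double-mutant array of that day names another strain. With the 3 arrays of another header strain left out, 7 were called.

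Whether RPD3 still mattered without the H3 tail was asked by setting the H3 double mutant against H3delta(1-28), whose first and second arrays were from the same 2 days. None of the 10 genes was called in limma, although 4 had an unadjusted p under 0.05 and 1.34% of all probe sets were called in either direction. The arrays of 5 genes did not overlap, against 39.4% of all probe sets. CAT2 was 1.18 ± 0.28 higher (adjusted p = 0.0584) and CRC1 1.11 ± 0.28 higher (adjusted p = 0.072) on the log2 scale. FOX2 differed by 0.74, YAT2 by 0.53, POT1 by 0.35, CTA1 by 0.27, YAT1 by 0.24, POX1 by 0.15, FAA2 by 0.14 and PEX11 by -0.24. Day by day, CAT2 differed by 1.35 and 1.02, CRC1 by 0.74 and 1.49, and POT1 by 0.64 and 0.05. The second value of each pair is from the second arrays, whose headers name another strain than their labels. CAT2 passed the test under median centring (1.13, adjusted p = 0.043), under quantile normalization (1.20, adjusted p = 0.0246) and without the intensity trend (1.18, adjusted p = 0.0447). The interaction, which asks whether the effect of deleting RPD3 was smaller without the H3 tail, was not called for any of the 10 genes, with 4 at an unadjusted p under 0.05 and 5.18% of all probe sets called in either direction. FOX2 had an interaction of -1.16 ± 0.34 (adjusted p = 0.068) and PEX11 of -1.20 ± 0.41 (adjusted p = 0.105). POT1 had -0.92, YAT2 -0.72, CTA1 -0.32, POX1 -0.27, FAA2 -0.15 and YAT1 0.45. For CAT2 (-0.52, interval -1.34 to 0.30) and CRC1 (-0.24, interval -1.04 to 0.57) the intervals spanned 0.

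In the H4 double mutant, 7 of the 10 genes rose against wild type and 3 were not called, against 11.6% of all probe sets called higher and 12.9% lower. FAA2 and CTA1, counted among the 7, entered the test only through mutant groups. The arrays of 8 genes, POX1 near background among them, did not overlap, against 50.7% of all probe sets. FOX2 rose 2.67-fold (1.42 ± 0.23, adjusted p = 0.00102), CAT2 2.41-fold (1.27, adjusted p = 0.00379), CRC1 2.41-fold (1.27, adjusted p = 0.00352), YAT2 1.82-fold and POT1 1.66-fold (adjusted p = 0.0118 and 0.0294). CTA1 rose at least 1.82-fold (adjusted p = 0.011) and FAA2 at least 1.63-fold (adjusted p = 0.00752). YAT1 (0.33, adjusted p = 0.621), PEX11 (0.11, adjusted p = 0.815) and POX1, with 1 array above the floor, were not called. Sampling period and chip lot moved this count most: 2 genes, FOX2 (1.40, adjusted p = 0.0188) and CAT2 (1.37, adjusted p = 0.0342), passed with period as a block and none with chip lot. The period block rests on the third wild-type array, the only one of wild type from the later period. Without the first array of the H4 double mutant 3 genes were called.

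Against H4(K5,8,12,16Q), all 4 arrays being from 1 day, the H4 double mutant had 3 of the 10 genes higher and 7 not called, against 2.17% of all probe sets called higher. The arrays of 7 genes did not overlap, against 57.8% of all probe sets. FOX2 rose 2.77-fold (1.47 ± 0.25, adjusted p = 0.008), YAT2 2.25-fold (1.17 ± 0.24, adjusted p = 0.0185) and CRC1 2.18-fold (1.12 ± 0.28, adjusted p = 0.0437). CAT2 (0.66, adjusted p = 0.216) and CTA1 (0.57, adjusted p = 0.194) were not called, nor were PEX11 (0.41), FAA2 (0.17), YAT1 (-0.11), POX1 or POT1, described next. Over 16 alternatives CRC1 lost its call in 6, and FOX2 and YAT2 lost theirs in 2 each. Without the first array of either group none of the 3 passed, although FOX2 still differed by 1.27 and 1.40 on the log2 scale.

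POT1 went the other way. Its log2 change on deleting RPD3 was 1.27 with wild-type histones and -0.49 ± 0.24 in H4(K5,8,12,16Q) (adjusted p = 0.301), and the test of that difference, the interaction, was -1.76 ± 0.33 (95% interval -2.47 to -1.04, adjusted p = 0.0135). It was the 1 interaction with H4(K5,8,12,16Q) called among the 10 genes, against 2.19% of all probe sets called lower. The interval for FOX2 (-0.43, from -1.16 to 0.31) spanned 0, and CAT2 had -1.05 ± 0.38 (adjusted p = 0.162). PEX11 had -0.55, POX1 -0.42, CRC1 -0.23, FAA2 -0.12, YAT2 -0.07, CTA1 -0.01 and YAT1 0.10, none of them called. The interaction of POT1 lost its call with day as a block (-1.53, adjusted p = 0.128) and with chip lot as a block (-1.65, adjusted p = 0.0578). It also lost it without the second array of the deletion of RPD3 (-1.71, adjusted p = 0.0523), of H4(K5,8,12,16Q) (-1.63, adjusted p = 0.067) or of the H4 double mutant (-1.44, adjusted p = 0.066).

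**Figure D3:**
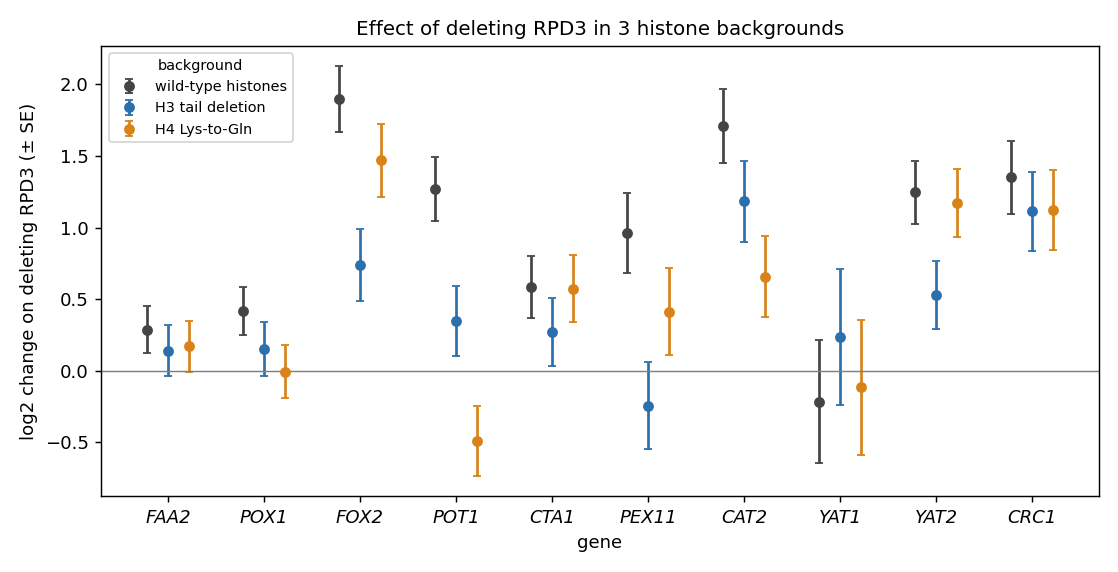
log2 change on deleting RPD3 (vertical axis, point ± SE from limma) for each gene (horizontal axis) with wild-type histones, in H3delta(1-28) and in H4(K5,8,12,16Q). POT1 lies at 1.27, 0.35 and -0.49 in the 3 backgrounds, while CRC1 lies at 1.35, 1.11 and 1.12.

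The members varied together to different degrees. Over the 8 group means of log2 signal, the closest pairs were FOX2 and YAT2 (Pearson r 0.92) and CAT2 and CRC1 (0.91), while YAT1 correlated with the other 9 genes at -0.49 to 0.26. These 8 points share arrays and scaling, so the values are a description. Outside the list, the genes whose profile over the 8 group means was most like the mean of the 10 were SOL2 (r 0.98), PAD1 (0.98), INP52 (0.97), AIM3 (0.97) and STE6 (0.96). INP52 had log2 changes of 1.27 in the deletion of RPD3 and 1.62 in the H3 double mutant, and AIM3 of 1.42 and 1.70.

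Other genes of the pathway were read from 6 lists. Beside their counts stand the shares of all probe sets called higher, 11.2% in the deletion of RPD3, 10.7% in H3delta(1-28), 11.8% in H3(K4,9,14,18,23,27Q), 12.3% in H4delta(2-26), 8.69% in H4(K5,8,12,16Q), 15.4% in the H3 double mutant and 11.6% in the H4 double mutant. The shares called lower were 4.13%, 2.98%, 13.7%, 15.1%, 16.5%, 8.13% and 12.9% in the same order. Of 16 tested enzymes and transporters of the peroxisome, 7 rose in the deletion of RPD3, 5 in H3delta(1-28), 7 in H3(K4,9,14,18,23,27Q) and 3 in H4delta(2-26), with 2 in H4(K5,8,12,16Q), 9 in the H3 double mutant and 5 in the H4 double mutant. At most 1 fell in any of them. The counts in H4delta(2-26) and H4(K5,8,12,16Q) are close to the shares over all probe sets, and nothing is read from them. ECI1, the enoyl-CoA isomerase needed for unsaturated fatty acids, rose by 2.41 ± 0.22 in the deletion of RPD3 (adjusted p = 1.81e-05). SPS19, the dienoyl-CoA reductase of the same branch, rose by 2.08 ± 0.24 in H3delta(1-28), 2.02 ± 0.24 in H4delta(2-26) and 2.12 ± 0.24 in the H3 double mutant. PNC1, a nicotinamidase that is imported into peroxisomes, rose in all 7 mutants, by 2.16 to 3.19. PXA2, a subunit of the transporter of long-chain acyl-CoA, rose by 1.05 ± 0.23 in the H4 double mutant.

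Peroxins are the proteins that build the peroxisome. Of 23 tested, 9 rose in the deletion of RPD3, 6 in the H3 double mutant, 4 in each H3 mutant, 3 in H4delta(2-26) and in the H4 double mutant and 1 in H4(K5,8,12,16Q), and 2 fell in each of the last pair. In H4delta(2-26) and in both groups with H4(K5,8,12,16Q) the share of peroxins that rose is near or below the 12.3%, 8.69% and 11.6% of all probe sets. PEX30 rose by 1.45 ± 0.27 in the deletion of RPD3, and PEX4, a ubiquitin-conjugating enzyme, by 1.48 ± 0.28 in H3delta(1-28) and 1.52 ± 0.28 in the H3 double mutant. PEX25, which acts with PEX11 in division, fell by 1.21 on the log2 scale in H4(K5,8,12,16Q) (adjusted p = 0.00522).

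The 7 regulators of the fatty acid response were not called in 6 of the 7 mutants, with 0 or 1 of them at an unadjusted p under 0.05. In the H4 double mutant ADR1, an activator of the pathway, rose by 1.25 ± 0.41 (adjusted p = 0.0394) and OAF1, a subunit of the oleate-responsive activator, fell by 0.72 (adjusted p = 0.0333). This 1 of 7 each way is near the 11.6% of all probe sets called higher there and the 12.9% called lower. Nothing is read from these counts. Of 7 genes that use the acetyl units, 1 rose in the deletion of RPD3, 3 in H3delta(1-28), in H4delta(2-26) and in the H4 double mutant, 4 in H3(K4,9,14,18,23,27Q) and in the H3 double mutant and 2 in H4(K5,8,12,16Q), and none fell. The 1 of 7 in the deletion of RPD3 is near the 11.2% of all probe sets called higher there. ACS1, an acetyl-CoA synthetase, rose by 1.76 ± 0.31 in the deletion of RPD3 and by 2.67 ± 0.31 in the H3 double mutant. CIT2, the peroxisomal citrate synthase of the glyoxylate cycle, rose by 3.14 ± 0.44 in H4delta(2-26) and by 2.70 ± 0.44 in the H3 double mutant.

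Further lists hold genes for the release, activation and synthesis of fatty acids. Of 8 lipases and acyl-CoA synthetases other than FAA2, none rose, and 1 fell in the deletion of RPD3, 2 in each of H3(K4,9,14,18,23,27Q), H4(K5,8,12,16Q) and the H4 double mutant, where 4.13%, 13.7%, 16.5% and 12.9% of all probe sets were called lower. YEH1, a steryl ester hydrolase, fell by 1.96 in H4(K5,8,12,16Q) (adjusted p = 0.000493) and fell by 2.66 in the H4 double mutant (adjusted p = 7.42e-05) on the log2 scale. Of 12 genes of fatty acid synthesis and elongation, 1 rose in H4(K5,8,12,16Q), where FAS1 rose by 0.71 ± 0.21 (adjusted p = 0.0256), and 0 to 2 fell in each mutant. ELO3, an elongase, fell by 0.66 in H3delta(1-28) (adjusted p = 0.00588).

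**Figure D4:**
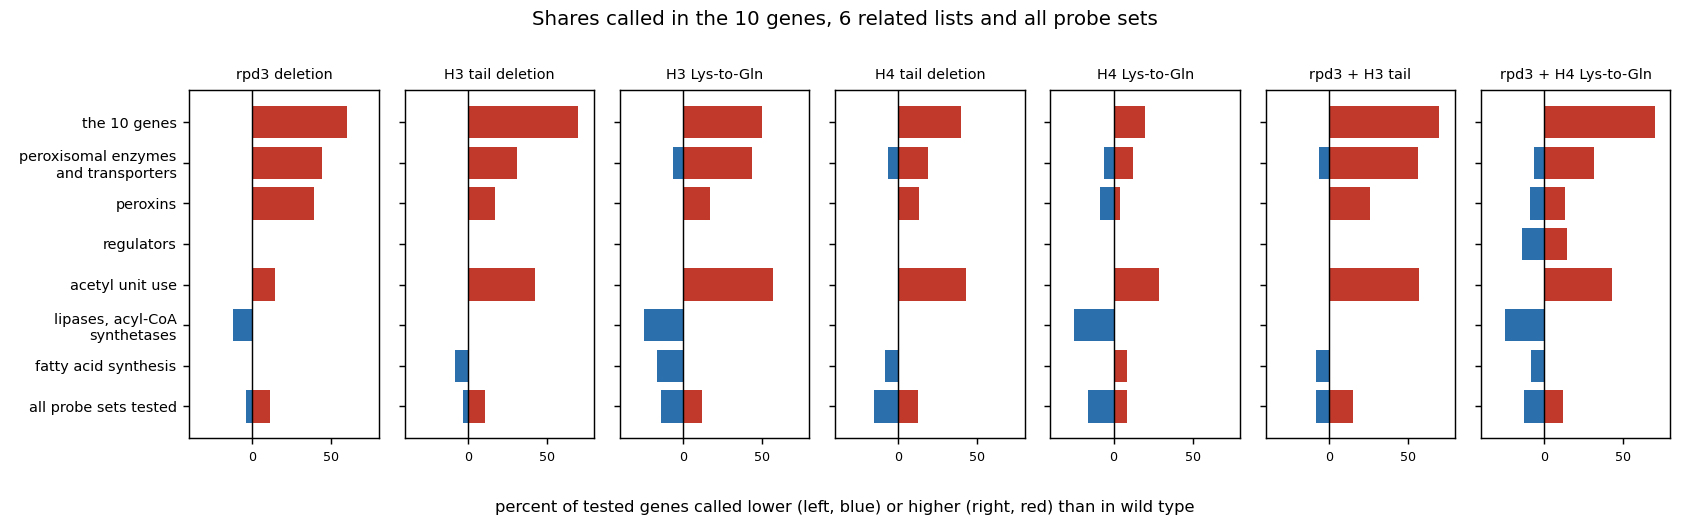
Percent of tested genes called lower (left, blue) or higher (right, red) than in wild type, for the 10 genes, 6 lists of related genes and all 7851 probe sets, in each of 7 mutants. The 10 genes have 60% higher in the deletion of RPD3, where all probe sets have 11.2%. The 10 genes and the lists were chosen with earlier results of these data known. Calls of FAA2 and CTA1, under the floor on all wild-type arrays, are included.

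The genes next to the 10 on the chromosome, in the gene order of the R64 annotation, were read as well. Of 20 adjacent coding genes 18 were tested, and 0 rose in the deletion of RPD3, in H3delta(1-28) and in H4delta(2-26), 1 in the other groups save the H4 double mutant, where 2 rose. All probe sets had 11.2%, 10.7% and 12.3% called higher in the first 3 groups named. The share was 11.8% in H3(K4,9,14,18,23,27Q), 8.69% in H4(K5,8,12,16Q), 15.4% in the H3 double mutant and 11.6% in the H4 double mutant. The counts that rose are near or below these shares, and nothing is read from them. Of the 18, 1 fell in the deletion of RPD3 and in H3delta(1-28), 4 in H3(K4,9,14,18,23,27Q) and in the H4 double mutant, 5 in H4delta(2-26), 6 in H4(K5,8,12,16Q) and 3 in the H3 double mutant. The shares of all probe sets called lower were 4.13%, 2.98%, 13.7%, 12.9%, 15.1%, 16.5% and 8.13% in this order. The 10 genes lie on 8 chromosomes, with POT1 and YAT1 nearest to an end, as the coding genes at positions 12 and 8 from it.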

How the data were processed

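Microarray signals of 18 arrays were used. The table deposited by the authors gives linear intensity values (arbitrary units), 1 column for each array. Trimmed means (2%) of 1501 to 1502, beside medians of 387.1 to 545, show a scaling of the arrays before deposit. The probe-level summary is not given in the sources used here. Chip lot and description are from the array run settings, deposited per array, whose unit is other than a measurement, per the file headers. Of 9335 probe sets, 60 controls were left out and 6504 named 1 gene, each matched to the R64 gene table.

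Arrays were scaled to a common 2% trimmed mean, low signals were raised to a floor of 140.2, the 25th percentile over all arrays, and log2 was taken. Testing was limited to probe sets that passed the floor on 2 or more arrays (7851, of which 6080 named 1 gene, 5447 genes). For POX1, which had 4 probe sets, the one with the highest mean signal stood for it. limma 3.58.1 in R 4.3.3 fitted all arrays with a mean per group (10 residual and 3.76 prior degrees of freedom), a trended variance, and p-values, two-sided, were adjusted by Benjamini-Hochberg per contrast (13 contrasts, threshold 0.05). The number of arrays limits the precision. Overlap of groups was read before the floor. The test was checked on simulated data.

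Alternatives were median centring, quantile normalization, no floor, a lower floor, no filter, no variance trend, blocks for day, period, chip lot and replicate number, the actin ratio as a covariate, the 3 arrays with another strain in the header left out, and each array left out. The 10 genes and the related lists were chosen with earlier results of these data known. All 10 were given in every comparison. From each list, up to 2 called genes with the largest change per comparison could be named. Likeness was Pearson's r over 8 group means.

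The replicate numbers marked a shared day, per the labels, only for the H3 double mutant against H3delta(1-28), where deviations of same-numbered arrays correlated at 0.283. In the other comparisons the correlations ran from -0.302 to 0.219.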

Additional observations from a re-analysis of the deposited data

Results flagged for a closer look

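One result met a rule for a closer look, a difference in the effect of 1 deletion between 2 backgrounds. The log2 change of POT1 on deleting RPD3 was 1.27 with wild-type histones and -0.49 in H4(K5,8,12,16Q), and the interaction that tests this difference was -1.76 (limma, adjusted p = 0.0135). Over 21 alternatives it ran from -2.07 to -1.44 with adjusted p from 0.00641 to 0.128, and it lost its call in 5 of them. The arrays of the H4 double mutant were 616.7 and 399.0 and those of H4(K5,8,12,16Q) 636.5 and 760.7, all of 1 day, while wild type and the deletion of RPD3 came from other days. The part of the day in this result was not tested beyond the fit with day as a block. No group held 4 or more arrays, so single arrays could not be tested as outliers.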

How the results depend on the processing

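Of 2220 alternative values of single genes, 1987 kept direction and call, 110 lost the call, 28 gained it, 95 changed sign with no call in either setting, and none reversed a called direction. FOX2, POT1, CAT2, CRC1 and YAT2 kept their calls in the H3 double mutant against wild type under every alternative run. FAA2 did so too, but its wild-type arrays all lay under the floor, and nothing is read from its call. A lower floor gave 9 of the 10 genes for the deletion of RPD3 and 5 for H4delta(2-26), and no floor 8 and 5. H4(K5,8,12,16Q) had 3 under median centring, quantile normalization and without the 3 arrays of another header strain, which also gave 4 for the H4 double mutant against it. The counts of the 10 genes called that moved by over 1.5 times were as follows. Median centring, quantile normalization and a variance without trend each gave 1 gene for the H3 double mutant against H3delta(1-28), and the last gave 1 for the interaction of the deletion of RPD3 with H3delta(1-28). With day as a block the deletion of RPD3 and H3delta(1-28) had 2 each, and H4delta(2-26) and the interaction with H4(K5,8,12,16Q) 0 each. With period as a block H4(K5,8,12,16Q) had 1, the H4 double mutant 2, and the H4 forms compared 0. Of wild type only the third array was of the later period, so the period block rests on it. With chip lot as a block H3(K4,9,14,18,23,27Q), H4delta(2-26), H4(K5,8,12,16Q), the H4 double mutant, the interaction with H4(K5,8,12,16Q) and the H4 forms compared had 0. Under the replicate block H4(K5,8,12,16Q) had 1 gene called in place of 2, and no other count moved by over 1.5 times. Arrays of that comparison share a number and no day. Without the 3 arrays of another header strain H4delta(2-26) had 2 and the H3 forms compared 1. Leaving out 1 array at a time, the counts ran from 5 to 6 for the deletion of RPD3 and for H3delta(1-28), 2 to 4 for H4delta(2-26), 1 to 2 for H4(K5,8,12,16Q), 3 to 7 for the H4 double mutant, 0 to 2 for it against H4(K5,8,12,16Q), 0 to 1 and 0 to 2 for the interactions with H3delta(1-28) and H4(K5,8,12,16Q), and 0 to 2 for the H4 forms compared. The cause was not tested. Day could not be fitted as a block for H3(K4,9,14,18,23,27Q), H4(K5,8,12,16Q) and the H4 double mutant against wild type, nor between the forms of 1 histone. Signals near the floor limit POX1, CTA1 and FAA2.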
